A study of Drosophila melanogaster with 19 samples.

Results

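Myoblast specification and fusion genes were followed in *Drosophila melanogaster* embryos that lack or regain *chiffon*. The set was a list of 10 gene symbols (*twi*, *Mef2*, *tin*, *bap*, *lmd*, *nau*, *sns*, *kirre*, *rst* and *hbs*), chosen by name and not by any measured value. Of these, 9 were matched to the count table by their annotated gene identifiers, out of 15055 genes with at least 1 count, and all 9 passed the expression filter that left 11978 genes for testing. *hbs* was not analysed here. Earlier results of these data were known when the list was chosen.

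RNA was sequenced from whole embryos at stages 12 to 14, in 19 libraries of 5 genotypes, each library being a pool of a few GFP-positive embryos picked by hand. The null embryos (n = 4) carried 2 different *chiffon* null alleles on chromosome 2, ETBE3 over DsRed, together with Actin-Gal4 and a UAS-GFP reporter. The same alleles and reporters were present in FL (n = 3), FLWF24 (n = 4) and ΔN (n = 4), with the addition of a *chiffon* transgene under the gene's own regulatory regions. The FL construct encodes the whole protein. FLWF24 is the full-length construct with an early stop codon, and ΔN is missing the N-terminal region. Per the paper, both still make the C-terminal product Chiffon-B, which forms the CHAT acetyltransferase complex. Neither makes the N-terminal product Chiffon-A, which forms the DDK kinase. The WT embryos (n = 4) carried act-Gal4 and GFP without the *chiffon* alleles. Since whole embryos were used, fewer cells of a type and less RNA per cell cannot be told apart in any of the values below.

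The body wall muscles of the fly embryo form by fusion of a founder cell with fusion-competent myoblasts. Twist patterns the mesoderm, the homeobox factors Tinman and Bagpipe allot dorsal mesoderm to heart and gut muscle, Lame duck specifies the fusion-competent cells, and Mef2 drives differentiation. Fusion starts when the immunoglobulin-family receptors Kirre and Roughest of the founder cell bind Sticks and stones on the fusion-competent myoblast. Around the stages collected here fusion is under way and the genes of the contractile apparatus are being switched on, while early mesodermal factors decline. The age of the embryos may therefore bear on these levels.

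The 9 genes lie on 3 chromosomes of the BDGP6 assembly. On arm 2R are *twi* (FBgn0003900, 22985374 to 23048325, plus strand), *Mef2* (FBgn0011656, 9913496 to 9958858, minus strand) and *sns* (FBgn0024189, 8798489 to 8856091, plus strand). On arm 3R are *tin* (FBgn0004110, 21378977 to 21381970, plus strand), *bap* (FBgn0004862, 21388880 to 21390449, plus strand, 6909 bases after *tin*), *lmd* (FBgn0039039, 23021222 to 23026713, minus strand) and *nau* (FBgn0002922, 23712814 to 23718357, minus strand). On chromosome X are *kirre* (FBgn0028369, 2740384 to 3134532, plus strand) and *rst* (FBgn0003285, 2950399 to 2973834, minus strand), which lies inside *kirre* on the other strand and shares 0 exon bases with it. Of the exon bases of *nau*, 26.4% are shared with *CG10300* on the opposite strand. Of those of *twi*, 10.3% are shared with *CG9897* on the opposite strand and 12.2% with the annotated RNA *asRNA:CR42742*. The values of *nau* and *twi* are therefore uncertain.

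Per kilobase of exon, *sns* was the most abundant of the 9 RNAs, at 73.2 CPM (counts relative to the scaled library size) per kb over the 19 libraries, and it was above *Mef2* (52.3) in 19 of 19. *Mef2* was above *lmd* (42.4) in 15 of 19 libraries, while *lmd* and *rst* (39.9) changed places, with *lmd* higher in 10 of 19. A wide gap followed, as *rst* was above *twi* (8.47) in 19 of 19 libraries. Among the low genes *twi*, *bap* (7.90), *kirre* (7.11), *tin* (5.60) and *nau* (4.23), no neighbours in this order were held apart in all libraries. The founder receptor *kirre* was thus far below its partner *sns* throughout. The ratio of *sns* to *kirre* per kb ran from 7.45 to 20.7 in the 15 libraries outside null and from 6.55 to 9.73 in the 4 null libraries, and was highest on average in FLWF24, at 15.6 ± 4.49 (SD, n = 4).

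Libraries held 5161281 to 21621677 gene counts, fewest in ΔN 4 and most in null 3, and between 63.6% and 96.0% of all counted reads fell into entries other than genes. The *chiffon* transcript was at 22.3 to 38.0 CPM in null and at 213 to 549 CPM in the 15 other libraries. A stage score was taken from genes outside the set and outside the lists of muscle formation below. In each library it was the mean log2(CPM + 1) of late cuticle and tracheal matrix genes minus that of early embryo genes. It was 3.14, 1.85, 0.25 and 3.25 in null 1 to 4, -3.31 to -2.26 in FL, -2.31 to -1.68 in FLWF24, -2.84 to 0.89 in ΔN and -2.49 to -0.04 in WT. The null score was above every FL, FLWF24 and WT library, by 4.93, 4.11 and 3.27 on average (two-sided exact permutation p 0.0286 each, the smallest possible at these group sizes, and 0.0952 adjusted over 10 comparisons). Against ΔN the difference was 3.51 (exact permutation p 0.0571, adjusted 0.114). In ΔN the range was set by ΔN 4, the library with the fewest counts. Late genes were thus higher relative to early ones in null, without passing the adjustment, and null 3 was the null library nearest to the others. The part of this difference in the levels below was not tested apart from the alternatives named.

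None of the 9 genes was called in any of the 10 comparisons between genotypes. Calls required a Benjamini-Hochberg adjusted p under 0.05 in the edgeR quasi-likelihood fit across all genes, with a log2 fold change of 0.5 or more in size. The share of all 11978 genes called was 0.501% in null against FL, 0.634% in null against WT, 1% in null against FLWF24 and 1.14% in null against ΔN. Among the other genotypes it was 0.0918% for FL against WT, 0.0250% for FLWF24 against FL and 0.184% for FLWF24 against WT. For ΔN it was 0.0167% against FL, 0.0751% against WT and 0.342% against FLWF24. With so few calls among all genes, 0 of 9 does not set these genes apart.

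Over the 90 tests of 9 genes in 10 comparisons, adjusted p ran from 0.145 to 1 and 4 tests had an unadjusted p under 0.05. These were *rst* in null against WT and null against ΔN, *kirre* in FLWF24 against WT, and *bap* in ΔN against FL. Such a p was found for 11.5% of all genes in null against WT, 15.3% in null against ΔN, 10.1% in FLWF24 against WT and 10.6% in ΔN against FL. In the other comparisons it was found for 11.7% (null against FL), 16.3% (null against FLWF24), 8.73% (FL against WT), 6.35% (FLWF24 against FL), 11.8% (ΔN against FLWF24) and 10.5% (ΔN against WT), and for 0 of the 9 genes. DESeq2 called 1 of the 9 in null against ΔN, namely *rst*, and 0 in the other 9 comparisons. Since no pair of genotypes was called for any gene, no neighbours in the order of genotypes are distinguished for any gene by this test.

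**Figure D1:**
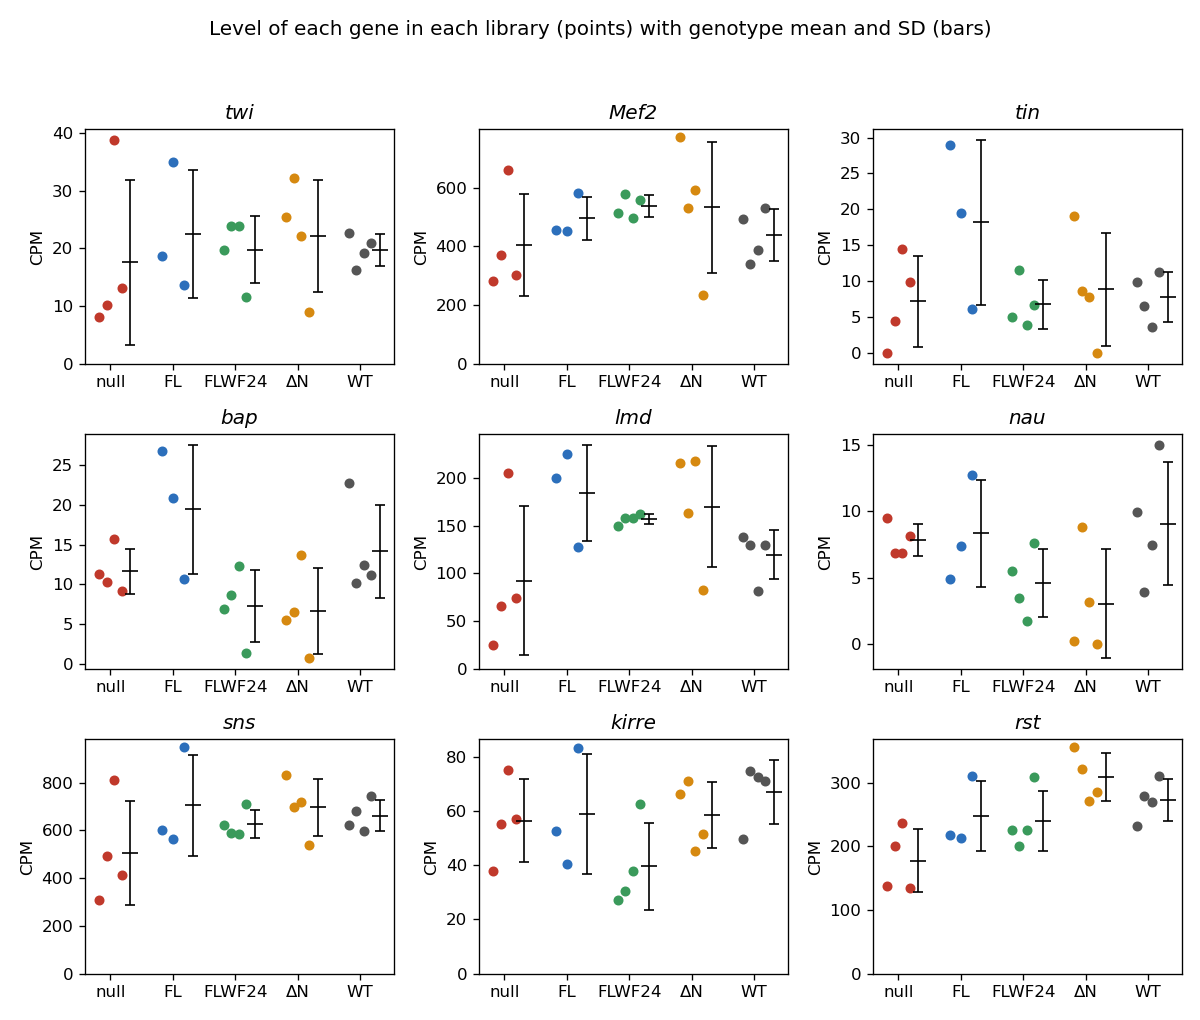
Level of each of the 9 genes in CPM (vertical axis, from 0) in each library (points, in the order of library number) of the 5 genotypes (horizontal axis), with the mean and SD of each genotype as black bars. In null, library 3 is the highest of its genotype for *twi*, *Mef2*, *tin*, *bap*, *lmd*, *sns*, *kirre* and *rst*, and for *rst* all 4 null libraries lie below all 4 ΔN libraries.

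*rst* encodes the founder cell receptor Roughest and gave the smallest p-values of the set. Its level was 138, 200.1, 236 and 135 CPM in null 1 to 4. It was 218, 214 and 312 in FL 2 to 4 and 232, 279, 271 and 311 in WT 1 to 4. It was 226, 201, 226 and 309 in FLWF24 1 to 4 and 357, 321, 272 and 286 in ΔN 1 to 4. All null libraries were below all ΔN libraries, a separation that 17.2% of all genes showed in one direction or the other, and 3 of 4 null libraries were below every WT, FL and FLWF24 library. Only null 3 overlapped with those genotypes.

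The genotypes stood in the order null (177 ± 49.4 CPM), FLWF24 (240.3 ± 47.2), FL (248 ± 55.2, n = 3), WT (273 ± 32.7) and ΔN (309 ± 38.1; SD, n = 4 except FL). The log2 fold change of *rst* was -0.75 in null against ΔN (SE 0.25, adjusted p 0.145) and -0.60 in null against WT (SE 0.21, adjusted p 0.265). It was -0.41 against FLWF24 (SE 0.22, adjusted p 0.363) and -0.43 against FL (SE 0.27, adjusted p 0.585). Each of these 4 values kept its sign in all 29 alternative fits, which share most of their libraries. The other of the 30 alternatives drops only the fold threshold and leaves the values as they are. The differences did not pass the threshold, and a p that misses it does not show that the levels were alike.

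For null against ΔN, *rst* passed the threshold in 3 of 30 alternatives. These were DESeq2 (-0.81, adjusted p 0.0249, with 4.88% of all genes called), the fit without the factor of unwanted variation (-0.80, adjusted p 0.0156, 12.6% called) and the fit without null 3 (-1.05, adjusted p 0.0254, 3.70% called). For null against WT it passed without null 3 (-0.84, adjusted p 0.0474, 2.33% called). The DESeq2 call and the call without the factor were made with null 3 in the fit. Null 3, whose absence gave the other 2 calls, had the lowest stage score in null and 21621677 gene counts. The low *rst* libraries null 1 and null 4 had the 2 highest stage scores of all libraries. With the stage score in place of the factor, the value in null against ΔN was -0.62 (adjusted p 0.514). That fit called 23 genes in all in null against ΔN, beside 136 in the fit with the factor.

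*kirre* encodes Kirre, also known as Dumbfounded, the other founder cell receptor, which attracts fusion-competent myoblasts. It was at 37.8, 55.1, 75.2 and 57.1 CPM in null 1 to 4. It was at 52.5, 40.5 and 83.4 in FL 2 to 4 and at 49.5, 74.6, 72.5 and 71.0 in WT 1 to 4. It was at 27.3, 30.5, 37.7 and 62.6 in FLWF24 1 to 4 and at 66.0, 71.0, 45.0 and 51.4 in ΔN 1 to 4. The null libraries overlapped with every other genotype, unlike those of *rst*. The lowest 3 libraries of all 19 were FLWF24 1, 2 and 3.

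In FLWF24 against WT the log2 fold change of *kirre* was -0.75 (SE 0.29, adjusted p 0.415), with 3 of 4 FLWF24 libraries below every WT library and FLWF24 4 within the WT range. In null it was -0.30 against WT (SE 0.31, adjusted p 0.790) and -0.19 against FL (SE 0.39, adjusted p 0.927). The value against FL turned to 0.16 without FL 4, to 0.085 with a replicate block and to 0.31 in a fit on the compared groups only, so no direction can be given for it.

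*sns* encodes Sticks and stones, the receptor of the fusion-competent myoblast that binds both founder receptors. Its level was 307, 492, 810.2 and 413 CPM in null 1 to 4. It was 604, 564 and 949 in FL 2 to 4 and 622, 682, 598 and 745 in WT 1 to 4. It was 624, 591, 585 and 711 in FLWF24 1 to 4 and 832, 698, 719 and 539.7 in ΔN 1 to 4. Null 1, 2 and 4 were the 3 lowest of all 19 libraries, and null 3 was the third highest.

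In the fit with the factor the log2 fold change of *sns* was -0.20 in null against FL (SE 0.29, adjusted p 0.878) and -0.27 against WT (SE 0.23, adjusted p 0.726). The 15 libraries outside null stayed between 539.7 and 949 CPM, and their genotype means between 628 ± 58.3 in FLWF24 (SD, n = 4) and 705 ± 212 in FL (n = 3). The comparisons among the 4 genotypes other than null had log2 fold changes of -0.10 to 0.04. Without null 3 the value in null against FL was -0.71, and without FL 4 it was 0.088, so its size and sign rested on single libraries.

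*lmd* encodes Lame duck, the zinc finger factor that gives fusion-competent myoblasts their identity and is needed for *sns* expression. It was at 24.6, 65.4, 205 and 73.7 CPM in null 1 to 4. It was at 199, 225 and 128 in FL 2 to 4 and at 138, 129.7, 81.3 and 129 in WT 1 to 4. It was at 149.8, 157, 158 and 162 in FLWF24 1 to 4 and at 216, 163, 218 and 82.7 in ΔN 1 to 4. Again null 1, 2 and 4 were the 3 lowest of all libraries, and null 3 was among the highest. In FLWF24 the 4 libraries were closest together and lay above all 4 WT libraries, as 6.40% of genes did in one direction or the other, and the fitted log2 value was 0.37 (SE 0.39, adjusted p 0.845).

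Averaged over libraries, *lmd* was at 92.2 ± 78.4 CPM (SD) in the 4 null libraries, 184 ± 50.4 in the 3 of FL and 119.6 ± 25.9 in the 4 of WT. The log2 fold change was -0.40 in null against FL (SE 0.51, adjusted p 0.855) and -0.16 against WT (SE 0.40, adjusted p 0.944). Without the factor of unwanted variation the value against FL was -0.99 (adjusted p 0.166), and without null 3 it was -1.40. With the stage score as a covariate it turned to 0.72 and, against WT, to 0.62. It was also positive against FL in a fit on the compared groups only (0.42) and against WT without WT 2 (0.061), so no direction can be given for *lmd* in null.

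*Mef2* encodes the MADS-box factor that activates the genes of differentiating muscle. It was at 281, 372, 659 and 303 CPM in null 1 to 4. It was at 454, 452 and 580.2 in FL 2 to 4 and at 492, 341, 387 and 529.6 in WT 1 to 4. It was at 514, 577, 495 and 558 in FLWF24 1 to 4 and at 771, 531, 592 and 235 in ΔN 1 to 4. The lowest library of all was ΔN 4, which has the fewest counts, followed by null 1 and null 4. The log2 fold change was 0.20 in null against FL (SE 0.33, adjusted p 0.902) and 0.13 against WT (SE 0.26, adjusted p 0.923), although the null mean of 404 ± 175 CPM (SD, n = 4) was the lowest of the 5. Both turned negative without the factor (-0.29 and -0.11) and without null 3 (-0.24 and -0.22).

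**Figure D2:**
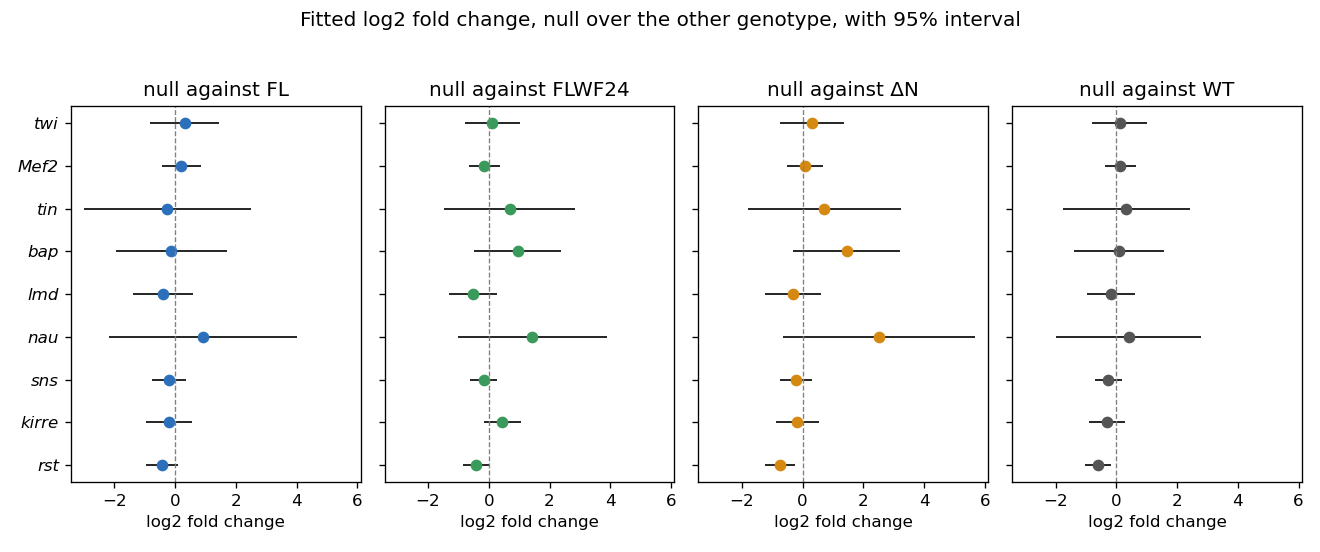
Fitted log2 fold change of null over FL, FLWF24, ΔN and WT (horizontal axis) for the 9 genes (vertical axis), with lines for the 95% interval from the standard error. The intervals of *rst* against ΔN (-0.75) and WT (-0.60) lie below 0 before adjustment, and those of *tin*, *bap* and *nau* are the widest.

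The remaining 4 genes were measured from few counts, so that only large differences could be detected. *twi*, the mesoderm determinant, was at 8.12, 10.2, 38.8 and 13.2 CPM in null 1 to 4, at 18.7, 35 and 13.7 in FL 2 to 4 and at 22.6, 16.2, 19.3 and 20.9 in WT 1 to 4. It was at 19.7, 23.9, 23.8 and 11.5 in FLWF24 1 to 4 and at 25.4, 32.2, 22.1 and 8.88 in ΔN 1 to 4. Null 3 was the highest of all 19 libraries and null 1 the lowest. The genotype means of *twi* lay within 17.6 to 22.5 CPM.

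*tin* encodes the NK homeobox factor of the heart and dorsal mesoderm. It was at 0, 4.42, 14.5 and 9.94 CPM in null 1 to 4 and at 29.0, 19.4 and 6.15 in FL 2 to 4, and at 9.88, 6.59, 3.55 and 11.2 in WT 1 to 4. It was at 5, 11.5, 3.82 and 6.62 in FLWF24 1 to 4 and at 19.1, 8.58, 7.73 and 0 in ΔN 1 to 4. The counts of 0 in null 1 and ΔN 4 allow levels of up to 0.567 and 0.566 CPM, taking 3 counts as the limit that a count of 0 allows and covering counting error only. FL 2 was the highest library, and every pair of genotypes overlapped.

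*bap* encodes the NK homeobox factor of the visceral mesoderm. It was at 11.3, 10.3, 15.7 and 9.23 CPM in null 1 to 4, at 26.7, 20.8 and 10.7 in FL 2 to 4 and at 22.7, 10.2, 12.5 and 11.2 in WT 1 to 4. It was at 6.91, 8.73, 12.3 and 1.39 in FLWF24 1 to 4 and at 5.56, 6.56, 13.8 and 0.755 in ΔN 1 to 4. In ΔN against FL, 3 of 4 ΔN libraries lay below every FL library, and the fitted log2 value was -1.58 (SE 0.73, adjusted p 0.453). ΔN 3 overlapped with FL 4, and the lowest ΔN library rested on 4 counts.

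*nau* encodes Nautilus, the fly's member of the MyoD family. It was at 9.45, 6.84, 6.89 and 8.13 CPM in null 1 to 4, at 4.87, 7.38 and 12.7 in FL 2 to 4 and at 9.96, 3.91, 7.42 and 15 in WT 1 to 4. It was at 5.50, 3.48, 1.74 and 7.60 in FLWF24 1 to 4 and at 0.256, 8.79, 3.18 and 0 in ΔN 1 to 4. The counts were 0 in ΔN 4, which allows up to 0.566 CPM, and 4 in ΔN 1. ΔN had the lowest mean and WT the highest, with overlap between all genotypes. Over the 40 tests of *twi*, *tin*, *bap* and *nau*, adjusted p ran from 0.453 to 1, with an unadjusted p under 0.05 only for *bap* in ΔN against FL.

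Because the null libraries differed in the stage score, each gene was set against it over all 19 libraries and over the 15 outside null, giving 18 relations with adjustment over all of them. The r farthest from 0 was that of *lmd* over all 19 libraries and that of *tin* over the 15 outside null. For *lmd*, over 19 libraries, Pearson's r was -0.780 (permutation p 0.00015, adjusted 0.0027) and Spearman's rho was -0.630 (permutation p 0.0044, adjusted 0.079), with r -0.624 after leaving out null 4 and null 1, the 2 libraries farthest from the median score. Over the 15 libraries outside null r was -0.622 (permutation p 0.014, adjusted 0.035) and rho was -0.550 (permutation p 0.035, adjusted 0.16), with r -0.402 without ΔN 4 and WT 4. Lower *lmd* with a higher score was thus also seen within the libraries that have *chiffon*, though the rank correlations did not pass the adjustment.

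*Mef2* and *twi* showed the same direction over 19 libraries. For *Mef2* r was -0.629 (permutation p 0.0042, adjusted 0.025) and rho -0.393 (permutation p 0.097, adjusted 0.25), with r -0.424 without the 2 farthest libraries. For *twi* r was -0.590 (permutation p 0.0071, adjusted 0.032) and rho -0.489 (permutation p 0.035, adjusted 0.16), with r -0.438 without them. *tin* had r -0.526 (permutation p 0.02, adjusted 0.045) and rho -0.441 (permutation p 0.06, adjusted 0.19), with r -0.499 without them. Outside null, r was -0.541 for *Mef2* (adjusted 0.067), -0.553 for *twi* (adjusted 0.060) and -0.663 for *tin* (adjusted 0.034).

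The receptors behaved differently from *lmd*. For *sns* r was -0.635 over 19 libraries (permutation p 0.0039, adjusted 0.025; rho -0.293, permutation p 0.23, adjusted 0.37), but -0.194 without null 4 and null 1 and -0.046 over the 15 libraries outside null (permutation p 0.87, adjusted 0.92; rho 0.104). For *rst* r was -0.561 (permutation p 0.013, adjusted 0.035; rho -0.182, permutation p 0.45, adjusted 0.58), but -0.004 without null 4 and null 1 and 0.392 outside null (permutation p 0.15, adjusted 0.21; rho 0.418). Both relations rested on these 2 null libraries. *kirre* had r 0.058 over 19 libraries and 0.225 outside null (adjusted 0.92 and 0.52). *bap* had r -0.195 over 19 libraries (adjusted 0.52) and -0.557 outside null (permutation p 0.031, adjusted 0.06). *nau* had 0.023 (adjusted 0.93) and -0.419 (permutation p 0.11, adjusted 0.17). The labels name no sequencing batch within which these relations could be taken.

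**Figure D3:**
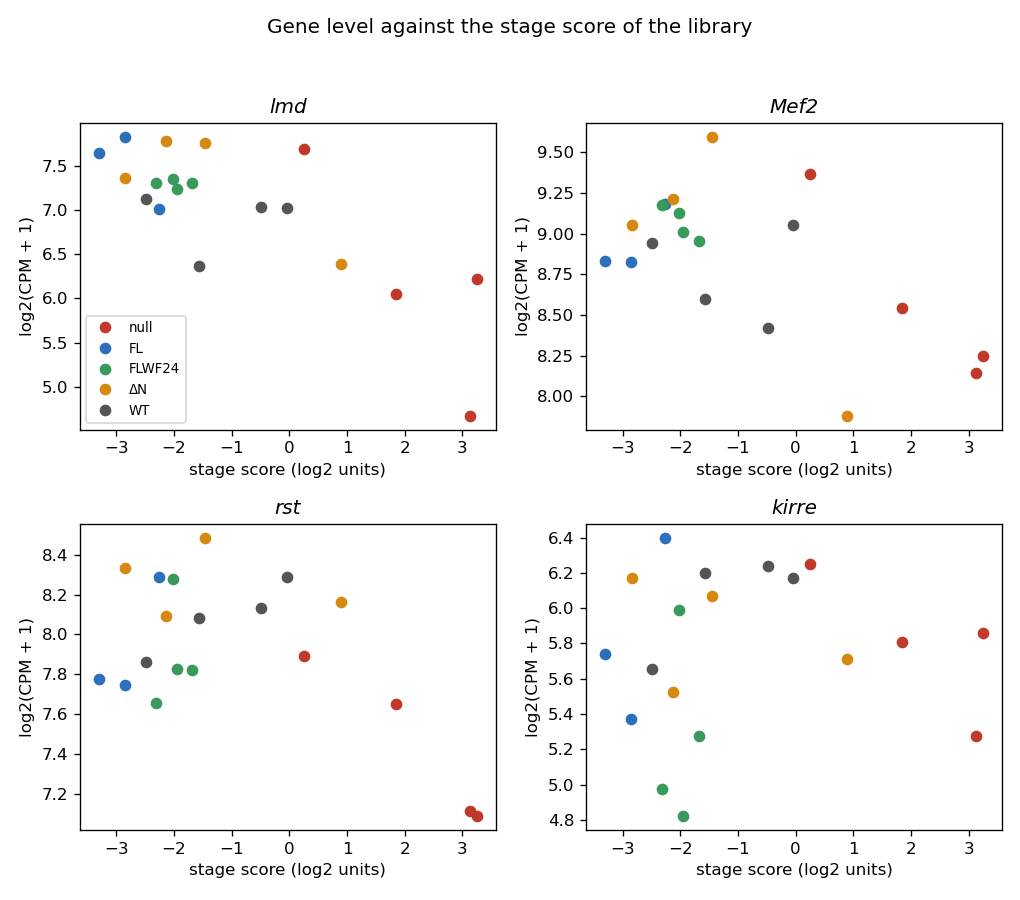
Level of *lmd*, *Mef2*, *rst* and *kirre* as log2(CPM + 1) (vertical axis) against the stage score of the library in log2 units (horizontal axis), with 1 point per library coloured by genotype. *lmd* is lower at higher scores over the 19 libraries (r -0.780), but null 3 lies above every WT and FLWF24 library. For *rst* the low points are null 1 and null 4, and the 15 libraries outside null show r 0.392.

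The 9 genes were compared with each other in the same way, as a description, since all pairs share the same 19 libraries, their depth and their stage. The median r over the 36 pairs was 0.371, with 14 pairs above 0.5 and 6 below 0. The highest was *sns* with *rst* (0.848), followed by *lmd* with *sns* (0.771), *tin* (0.764) and *twi* (0.762). Sticks and stones binds both founder receptors, and *sns* with *kirre* had r 0.491. *kirre* and *rst*, although neighbours on chromosome X, had r 0.521, and the lowest was *bap* with *rst* (-0.338).

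Among all tested genes with a mean of at least 5 CPM, the pair most like each gene over the 19 libraries was also read out, again as a description. The closest to *lmd* were *CycB3* (r 0.956), a mitotic cyclin, and *hb* (0.955), the gap gene *hunchback*. The closest to *sns* were *ptc* (0.941), the Hedgehog receptor, and *ttk* (0.933), a transcriptional repressor. The closest to *rst* were *Cont* (0.918), a septate junction protein, and *Mcr* (0.905), and to *kirre* *Ten-m* (0.835), a teneurin, and *Khc* (0.831), the kinesin heavy chain. *Mef2* was nearest to *raskol* (0.857) and *yrt* (0.847), *tin* to *FLASH* (0.872) and *CG33116* (0.868), and *twi* to *CG8243* (0.842) and *Nup35* (0.817). For *bap* (*ND-51L1*, 0.772, and *Atac1*, 0.766) and *nau* (*snoRNA:Dek-a*, 0.817, and *lncRNA:CR43651*, 0.814) the nearest genes were less close or were non-coding RNAs.

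Other genes of muscle formation were taken from lists drawn up by function. In the fusion machinery, the proteins that act downstream of the receptors, 19 of 19 genes were tested and 0 were called in null against FL, WT or ΔN. Only *sing*, which encodes the membrane protein Singles bar needed for fusion, was called, in null against FLWF24, where 1% of all genes were called. Its level was 5.10, 9.42, 20.5 and 3.39 CPM in null 1 to 4 and 38.1, 45.6, 36.9 and 47.5 in FLWF24 1 to 4. The log2 fold change was -1.84 (SE 0.42, adjusted p 0.0429). In null against WT its value was -1.44 (SE 0.42, adjusted p 0.139) and in null against FL -1.02 (SE 0.52, adjusted p 0.453). The call was lost in 12 of 30 alternatives. These were the stage score as a covariate (-0.50, adjusted p 0.916), 2 factors of unwanted variation (-1.59, adjusted p 0.0707), a filter of at least 10 counts on average (-1.82, adjusted p 0.0534) and the fits without any of 9 single libraries (adjusted p up to 0.295). The fit with the stage score called 2 genes in all in null against FLWF24, beside 120 in the fit with the factor. Over all fits leaving out 1 library the *sing* value stayed between -2.52 and -1.69. The most abundant of the others were not called in null against FL or null against WT, with log2 fold changes of -0.40 and -0.23 for *mbc*, the exchange factor Myoblast city, -0.09 and -0.21 for *Pak3*, -0.04 and -0.24 for *Vrp1* and 0.01 and 0.18 for *siz*. The median of the list was -0.03 and -0.12, beside 0.05 and 0.03 over all genes tested.

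The factors that distinguish single muscles gave 0 called of 16 in each of the 4 null comparisons, with a median of -0.23 in null against FL and -0.32 against WT. Among the most abundant, *caup* had -0.25 and -0.81, *tup* -0.46 and -0.59, *sd* -0.24 and -0.19, and *Dr* -0.34 and -0.44 (adjusted p from 0.288 to 0.890). Notch, EGF receptor and proneural genes, which select founder cells, gave 0 of 9 tested, with medians of -0.43 and -0.25. *N* itself was at 563 CPM on average in null, 996 in FL and 1080 in WT (log2 fold changes -0.53 and -0.83, adjusted p 0.620 and 0.243). *aop* had -0.43 and -0.37, *spi* -0.15 and -0.01, and *Egfr* -0.01 and -0.13. Genes of mesoderm, heart and gut muscle patterning gave 0 of 17, with medians of 0.21 and 0.13. There, *how*, an RNA-binding protein of muscle, had 0.73 and 0.31, *zfh1* 0.34 and 0.46, *stumps* 0.21 and -0.09, and *svp* 0.33 and -0.22 (adjusted p from 0.285 to 0.944).

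The sarcomere genes are expressed at the end of this path, and their values in null against FL were larger. In null against FL 3 of 17 were called, all higher in null, beside 0.501% of all genes, with a list median of 2.23 beside 0.05 over all genes. *Act57B*, a muscle actin, was at 4420 ± 1482 CPM (SD) across the 4 null libraries and 743 ± 163 across the 3 of FL, with 1.52 (SE 0.30, adjusted p 0.0183), and was also called against ΔN (1.31). *Prm*, paramyosin, had 686 ± 350.2 CPM in null and 7.51 ± 3.79 in FL, and a log2 value of 3.96 (SE 0.66, adjusted p 0.0141). *Mlp84B*, a Z-disc protein, had 230.2 ± 95.9 CPM in null and 16.9 ± 5.75 in FL, and a log2 value of 2.53 (SE 0.49, adjusted p 0.0183). Of the most abundant others, myosin heavy chain *Mhc* had 3.06 (adjusted p 0.225), troponin T *up* 3.12 (0.193), myosin light chain *Mlc2* 2.04 (0.356) and *sls*, the titin-like Sallimus, 1.14 (0.285), and none of these passed.

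In null against WT 0 of 17 sarcomere genes were called and the median was 0.74. *Act57B* narrowly missed the threshold there, with a log2 value of 1.02 (SE 0.24, adjusted p 0.0502). The list median was 0.94 in null against FLWF24 and 1.23 in null against ΔN. FL itself lay below WT, with a sarcomere median of -1.30 in FL against WT, beside -0.05 over all genes, and 0 called. How much of the difference in null against FL lies in the level of FL was not tested. The 3 calls in null against FL were lost with the stage score as a covariate (*Act57B* 0.69, *Prm* 2.09, *Mlp84B* 1.64, adjusted p 1 each). That fit called 2 genes in all in null against FL, beside 60 in the fit with the factor. The score of null did not overlap with that of FL. The 3 calls were also lost without FL 3 (adjusted p 0.0779 each). *Act57B* and *Prm* also lost them without FL 2 (adjusted p 0.0907 and 0.0742) and *Mlp84B* without null 2 (0.0657). Over all fits leaving out 1 library the values stayed at 1.36 to 1.71 for *Act57B*, 3.72 to 4.38 for *Prm* and 2.30 to 2.95 for *Mlp84B*. The summed level of the 17 genes was 12517 to 37277 CPM in null and 2066 to 14144 in the 15 other libraries. That of the 22 late cuticle and tracheal genes was 2782 to 10226 and 501 to 2305, and that of the 6 neuron markers was 1290 to 1943 and 611 to 1275. The late genes are also part of the stage score. Hemocyte markers were at 1878 to 2364 CPM in null and 964 to 2175 in the other libraries, with overlap. The mesoderm patterning genes were at 1406 to 2281 CPM in null and 1211 to 2125 in the other libraries, also with overlap. Glia and epidermis markers were not higher in null. Glia markers were at 625 to 687 CPM in null and 648 to 781 elsewhere, and epidermis markers at 474 to 1123 and 778 to 1285. The part of any of these lists in the sarcomere difference was not tested further.

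**Figure D4:**
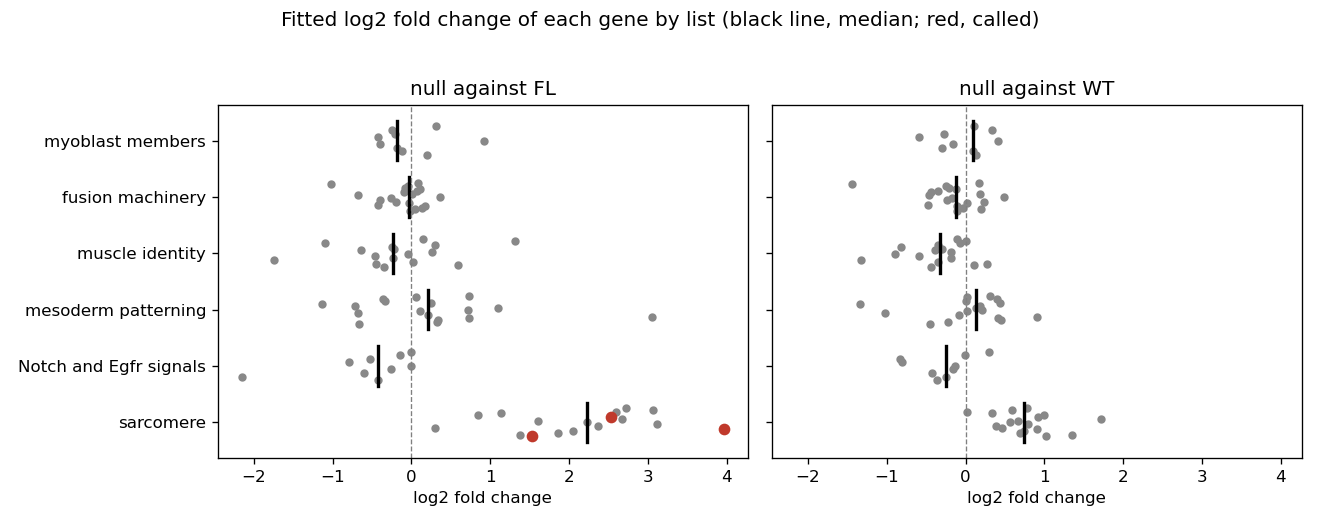
Fitted log2 fold change (horizontal axis) of each gene in null against FL (left) and WT (right), by list (vertical axis), with the median as a black line and called genes in red. The medians of the 5 lists of specification and fusion genes lie between -0.43 and 0.21 in null against FL and that of the sarcomere genes at 2.23, with 3 called genes.

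The receptors *sns* and *kirre* also serve in nephrocytes, so markers of those cells were read as well. The 4 nephrocyte markers, summed, were at 658 to 1129 CPM in null and at 615 to 1236 in the other libraries, and 0 of 4 were called in any null comparison. The ratio of *rst* to *kirre* per kb was 2.98 to 4.58 in null and 4.68 to 10.4 in the 15 other libraries, without overlap, and that of *rst* to *sns* was 0.406 to 0.624 and 0.457 to 0.736, with overlap. The *rst* to *kirre* ranges nearly touched, and how often the ratios of other gene pairs separate in this way was not examined. These ratios are given as a description, with no test.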

How the data were processed

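Raw counts per gene were deposited by the authors for 19 libraries. Per the study's methods and the submitters' processing notes, reads were trimmed (Trimmomatic), mapped to dm6 (HISAT2) and counted by htseq-count (HTSeq 0.11.1) at default settings. These assign reads by strand, whereas the Ovation kit is not known to keep it, so overlapping genes are uncertain. FL columns are numbered 2 to 4 and were matched to FL as a group. Entries that are not genes and 138 rRNA genes were removed. Gene symbols were looked up in a newer annotation of that assembly.

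Scaling was by TMM. Tests were edgeR 4.0.16 quasi-likelihood (R 4.3.3, filterByExpr by genotype), with all 19 libraries and 1 RUVs factor in the fit and Benjamini-Hochberg adjustment over 11978 genes, and the fit was tested on simulated data. P-values measure the spread between these embryo pools. Alternatives were DESeq2 1.42.0, 0 or 2 factors, other scalings and filters, compared groups only, a replicate block, the stage score as covariate, no fold threshold and leaving out each library. Correlations used 100000 permutations. Members, lists and tests were chosen with earlier results of these data known. All members were named, with the called genes and the 4 most abundant others of each list and the 2 nearest genes.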

Additional observations from a re-analysis of the deposited data

Results flagged for a closer look

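Within the groups of 4 libraries, 3 of 36 sets of values held a library far from the other 3 by Dixon's ratio, whose critical value for 4 samples is 0.829. Chance alone flags about 1 in 20 groups. *twi* was at 38.8 CPM in null 3, where the other null libraries held 8.12 to 13.2 (ratio 0.835). *lmd* was at 81.3 CPM in WT 3, where the other WT libraries held 129 to 138 (ratio 0.848). *kirre* was at 49.5 CPM in WT 1, where the others held 71.0 to 74.6 (ratio 0.857). Null 3 was the null library with the lowest stage score (0.25). The scores of WT 3 (-1.57) and WT 1 (-2.49) were the 2 lowest of WT.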

How the results depend on the processing

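The count of called members was 0 in all 30 alternatives for 8 of 10 comparisons. In null against ΔN it was 1 with DESeq2, with no factor of unwanted variation and, among the fits leaving out 1 library, ranged from 0 to 1, and in null against WT that range was also 0 to 1. The gene was *rst* each time, and among the fits leaving out 1 library each 1 came without null 3. Dropping the fold threshold called 0 members. Calls among all genes varied widely with the setting. In null against FL they were 2 with the stage score, 60 in the fit with the factor and 1308 without the factor. The counts of 0 members therefore do not set these genes apart. The numbers shared by libraries do not pair them: deviations of same-numbered libraries correlated at a median of 0.015 over 24 pairs (6 over 0.1), and with the replicate block 0 members were called. The block turned *kirre* in null against FL to 0.085 (adjusted p 1).

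Signs turned as follows, none with a call. Without the factor, *Mef2* had -0.29 in null against FL and -0.11 against WT. With the stage score in its place, null against FL gave 0.72 for *lmd*, 0.14 for *sns* and 0.15 for *kirre*, and null against WT 0.62 for *lmd* and 0.0019 for *sns*. On the compared groups only, null against FL gave 0.42, 0.15 and 0.31. Leaving out 1 library gave -0.24 to 0.34 (*Mef2*), -1.40 to -0.24 (*lmd*), -0.71 to 0.088 (*sns*) and -0.59 to 0.16 (*kirre*) in null against FL, and -0.22 to 0.25 (*Mef2*), -0.93 to 0.061 (*lmd*) and -0.66 to -0.19 (*sns*) against WT. The cause was not tested. *rst* kept its sign in all 29 alternative fits against each of FL, WT, FLWF24 and ΔN. Depth limits *tin*, *bap* and *nau*, with 0 to 452 counts per library.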
